A study of Mus musculus with 12 samples.

Results

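The response of wild-type hepatic stellate cells to PDGF-B was measured on 6 arrays, 3 of cells given the ligand and 3 of cells without it, out of 12 arrays in the study. The arrays were chosen by their source name, which gives the genotype and the treatment, and were joined into pairs by the code in their titles (P11, P393 and P530). Each code is shared by 1 array with ligand and 1 without, and cells of 1 code are called a preparation. What a code marks (1 mouse, pooled mice or a separate dish) is not said in the labels, so the tests below reflect how these samples vary, and that variation may be technical in part.

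Hepatic stellate cells are the pericytes of the liver sinusoid. They store vitamin A in the healthy liver and turn into contractile, matrix-producing myofibroblasts after injury. PDGF-B is a dimeric growth factor that binds the PDGF beta receptor, a tyrosine kinase which signals through phosphatidylinositol 3-kinase and Akt, through the Ras and ERK cascade and through phospholipase C. In stellate cells it is known as a strong mitogen and a chemotactic signal.

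The wild-type cells came from mice homozygous for a floxed beta-PDGFR gene (β-PDGFR fl/fl) on the 129S4/SvJae background and negative for a Cre transgene under the GFAP promoter, which had come in with an FVB line. The knockout cells, used below for the spread and for 1 comparison, carried the same floxed gene and were Cre positive, and they too gave 3 pairs (P338, P522 and P524). All mice therefore had the floxed allele, and their ages are not given in the labels. Cells were freed from liver with pronase and collagenase, separated on a Percoll gradient and grown in DMEM with 10% fetal bovine serum. They then received PDGF-B at 10 ng/ml, or none, in serum-free DMEM with albumin as the vehicle. The labels used here give no time of exposure.

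Values are log2 intensities after background correction and quantile normalization, and a change is the value with ligand minus that without in the same preparation. In all, 13305 genes were above background on at least 3 of the 12 arrays, 9981 of them on all 6 wild-type arrays. Median raw intensity ran from 86.2 to 96.2 over the 12 arrays, and 45.2% to 53.3% of probes were above background. Mean raw intensity was higher with ligand in P11 (238 against 214), lower with ligand in P530 (219 against 251), and close to equal in P393 (290 against 294).

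Preparation P11 stood apart from the others in its response. Across the 13305 genes, the changes in P11 correlated with those in P393 at r = -0.39 and with those in P530 at r = -0.19, whereas P393 and P530 correlated at r = 0.30. The 3 knockout pairs correlated among themselves at r = 0.16 to 0.24. They correlated with P11 at r = -0.15 to -0.02, with P393 at r = 0.10 to 0.16 and with P530 at r = 0.03 to 0.24. These are descriptions across genes, which are not independent of each other, and all arrays were normalized together. Of the variance over all genes on the 6 wild-type arrays, 79.1% lay between preparations, 5.99% between ligand and none, and 14.9% in the remainder. This remainder joins unequal responses of the preparations with array noise, as no array was repeated. The ligand share holds such noise as well, so it is not the size of a response. An exchange of the 2 arrays of P11 would turn the sign of all its changes. Whether its labels are right was not tested, and they were kept as given. Each result is therefore given for every pair, and the tests with and without P11.

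**Figure D1:**
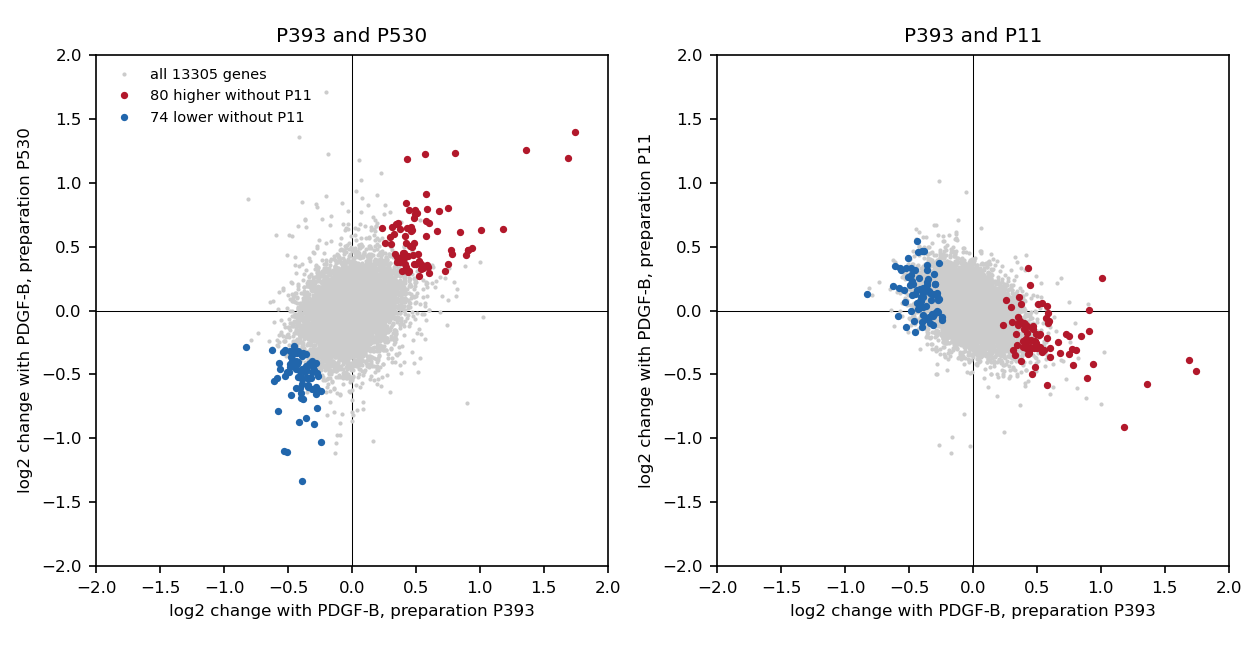
Log2 changes with PDGF-B in preparation P393 (horizontal axis) against those in P530 (left) and P11 (right), 1 point per gene for all 13305 genes. The 80 genes higher (red, 0.601% of all) and 74 lower (blue, 0.556%) in the fit without P11 were chosen by their changes in P393 and P530, so their place on the left panel follows from the choice, and on the right panel most lie on the other side of 0 in P11.

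The cultures held markers of several cell types. Of the stellate markers, Des (desmin) was above background on 6 of 6 wild-type arrays and Colec11 on 6, but Lrat, which esterifies retinol for storage, and Gfap, whose promoter drives the Cre, on only 2 each, Ngfr on 3, and Reln and Hgf on 4. Reln was at 7.77 and 8.23 in P11 but at 5.77 and 5.90 in P530. The myofibroblast genes Acta2, Tagln, Myl9, Col1a1, Col1a2, Lox and Timp1 were above background on all 6. The endothelial genes Cdh5 (5.995 to 6.28) and Stab2 (5.96 to 6.32) were too, but near the lowest level above background (5.93 to 5.96). Pecam1 was above background on 4 arrays and Kdr and Lyve1 on 3. Above background on all 6 were also the macrophage genes Adgre1, Csf1r, Lyz2, C1qa and C1qb (10.17 to 13.88). The same held for the mesothelial genes Upk3b, Upk1b, Msln, Krt8 and Krt19 (6.18 to 12.36). Of the markers fixed for hepatocytes, Alb, Apoa1 and Cyp2e1 were above background on 0 arrays, as were the cholangiocyte marker Epcam and the lymphocyte marker Nkg7. Other markers of these types were detected: Ttr of hepatocytes on 4 arrays (5.72 to 6.33 over the 6), Krt7 of cholangiocytes on 6 (7.63 to 8.53) and Cd3e of lymphocytes on 4 (5.90 to 6.25 over the 6). Of the whole marker lists, 4 of 10 measured hepatocyte genes and 6 of 13 endothelial genes were above background on all 6. Krt19 marks cholangiocytes as well as mesothelium. Kupffer cell marker Clec4f was above background on 5 arrays, with a log2 intensity of 5.90 to 6.06. Cd68, Wt1 and Cd79a were not analysed here.

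Some of these markers moved with the ligand in single preparations. Over the 18 macrophage genes measured, the summed linear intensity ran from 60996 to 63905 without ligand and from 54178 to 65679 with it. Lyz2, the brightest macrophage gene named above, was at 13.881 on both arrays of P11 and without ligand in P530. Quantile normalization gives a rank a fixed value, so a change in Lyz2 may not show in this sum. Over the 9 mesothelial genes the summed intensity went from 10248 to 9179 in P11, from 9652 to 8604 in P393 and from 10449 to 5924 in P530, so the ligand array of P530 lay below the other wild-type arrays. Upk3b, a uroplakin of mesothelial cells, went from 11.31 to 10.34 in P530, from 11.80 to 11.46 in P11 and from 11.57 to 11.48 in P393. Krt19 instead was higher with ligand in each pair, from 6.18 to 6.43 in P11, 6.20 to 6.29 in P393 and 6.41 to 6.51 in P530. Of the 9 genes 4 were lower and 1 higher in all 3 pairs. A linear sum weighs bright genes most, and Upk1b (11.33 to 12.36) and Upk3b were the brightest mesothelial genes named above. The sum of 13 endothelial genes, without and with ligand, was 3653 and 3252 in P11 and 2327 and 2390 in P393. In P530 it was 1614 and 1761. The sum of 10 hepatocyte genes went from 5037 to 4124 in P11, 3686 to 3512 in P393 and 4199 to 3320 in P530. Even so, 8 of these 10 genes were higher with ligand in P11. Genes of MHC class II, chosen after their values were seen, set P11 apart. Cd74, the invariant chain that escorts MHC class II molecules, was at 11.45 without and 10.34 with ligand in P11, at 7.69 and 7.52 in P393 and at 6.51 and 6.05 in P530. H2-Aa, a class II chain, was at 10.27 and 9.29 in P11 and between 5.81 and 6.49 on the other 4 arrays. The part of these shifts in the results below was not tested. In cultures of several cell types, a change in the share of cells and a change in RNA per cell cannot be told apart.

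**Figure D2:**
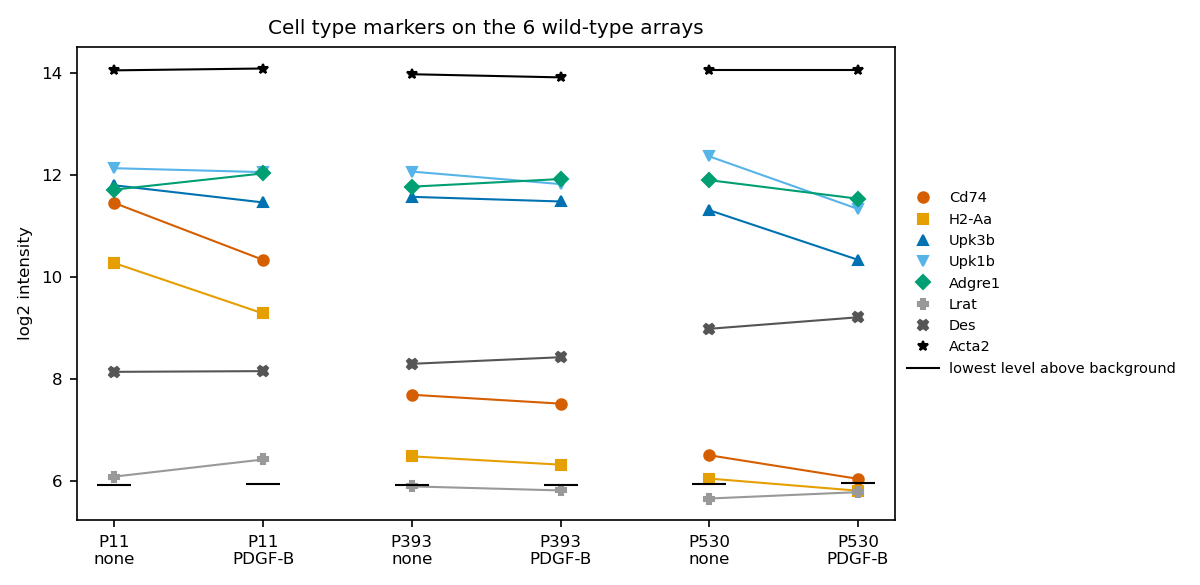
Log2 intensity (vertical axis) of 8 markers on the 6 wild-type arrays, with a line joining the arrays of each preparation and a dash at the lowest level above background on each array. Cd74 and H2-Aa are high in P11 and lower there with ligand, Upk3b and Upk1b are lowest on the ligand array of P530, and Acta2 lies near 14 throughout.

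With all 3 wild-type pairs, 0 of 13305 genes differed between PDGF-B and no ligand at an adjusted p under 0.05 (0%, limma with the preparation as a block and Benjamini-Hochberg adjustment). At an unadjusted p under 0.05, 306 genes were higher (2.3%) and 322 lower (2.42%), together fewer than the 665 that chance gives. Without the block the numbers at this level were 39 and 39, again with 0 past the threshold. In all 3 pairs 1343 genes were higher with ligand (10.1%) and 1442 lower (10.8%). Signs drawn at random would give shares no smaller than these, so the counts alone show no shared response.

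Timp1, the secreted inhibitor of matrix metalloproteinases, had the highest smallest pair value among the genes positive in all 3 pairs. It was at 11.60, 11.72 and 12.80 without ligand and at 11.98, 12.06 and 13.18 with it in P11, P393 and P530. The pairs differed by 0.38, 0.34 and 0.38, while the levels of both groups overlapped, P530 being the highest with and without ligand. The mean change was 0.37 ± 0.09 (SE), with adjusted p = 0.999 in limma.

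Scd1, the desaturase that makes monounsaturated fatty acids, went from 9.08 to 9.41 in P11, from 10.08 to 10.51 in P393 and from 9.35 to 10.53 in P530. It was higher with ligand in every pair, and only the ligand array of P11 lay within the range of the arrays without ligand. Spon2, a secreted matrix protein of the spondin family, went from 8.99 to 9.25, from 10.88 to 11.88 and from 9.34 to 9.97 in the same order. Their mean changes were 0.65 ± 0.13 and 0.63 ± 0.14 (SE), each with adjusted p = 0.999.

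The other named genes with positive values in all 3 pairs had various roles, and none passed the threshold. Cd248 (endosialin), a surface glycoprotein of pericytes and fibroblasts, had 0.19, 0.23 and 0.44 in P11, P393 and P530. Foxs1, a forkhead transcription factor, had values of 0.20, 0.44 and 0.31. Dysf (dysferlin), which repairs the cell membrane, had 0.23, 0.27 and 0.31, and Glipr2 0.28, 0.25 and 0.38. Sugt1, a partner of the chaperone HSP90, had the smallest p among positive values, at 0.43, 0.41 and 0.22 (mean 0.35 ± 0.07 SE, unadjusted p = 2.84e-04, adjusted p = 0.999). Its 3 levels with ligand (6.98 to 7.19) lay above those without (6.54 to 6.81). Med15, a Mediator subunit, Sac3d1, Chst11, a chondroitin sulfotransferase, and Map1lc3a, an autophagy protein of the LC3 family, complete the set, with pair values of 0.17 to 0.34. Medag was among the smallest p-values as well, at 0.16, 0.30 and 0.43.

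Among the named genes lower in all 3 pairs, P2ry13, Ms4a6b, Fcrls and Cd74 are known from myeloid cells or leukocytes. In contrast, Tyrobp, an adaptor of myeloid receptors, was higher in all 3 pairs. Of the 18 macrophage markers 1 was lower and 1 higher in all 3 pairs. P2ry13, an ADP receptor of myeloid cells, went from 7.82 to 7.32 in P11, from 7.15 to 6.86 in P393 and from 6.80 to 6.45 in P530, with overlapping groups. It had the smallest p of all genes (mean -0.38 ± 0.07 SE, unadjusted p = 1.65e-04, adjusted p = 0.999). Ms4a6b, a membrane protein of leukocytes, had -0.31, -0.28 and -0.30, and Fcrls, an Fc receptor-like protein of macrophages, -0.22, -0.33 and -0.40. The summed macrophage markers given above were higher with ligand in P11 and lower in P393 and P530, and their part in these values was not tested.

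Pik3ca, the p110 alpha catalytic subunit of phosphatidylinositol 3-kinase, went from 7.37 to 7.12, from 7.77 to 7.44 and from 7.58 to 7.22 in P11, P393 and P530. The lower level with ligand was thus seen in each pair, by 0.26 to 0.36, while the groups overlapped (mean -0.31 ± 0.06 SE, adjusted p = 0.999). Trf (transferrin), the iron carrier of plasma, had -0.38, -0.19 and -0.45, and Sema3f, a secreted guidance cue, -0.30, -0.26 and -0.32. The binding proteins of insulin-like growth factors Igfbp2 and Igfbp4 had -0.42, -0.28 and -0.19, and -0.30, -0.32 and -0.17. Ccdc92, Cavin2 (a caveolar coat protein), Nudt9, Gsta3 (a glutathione transferase) and Cpe (carboxypeptidase E) had pair values of -0.47 to -0.20. Zfp663 was above background on all 3 arrays without ligand and on 0 with it, so that its level was at least 1.07-fold lower. Shroom2 had -0.17, -0.46 and -0.28, and Cd74, described above, -1.11, -0.17 and -0.46.

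**Figure D3:**
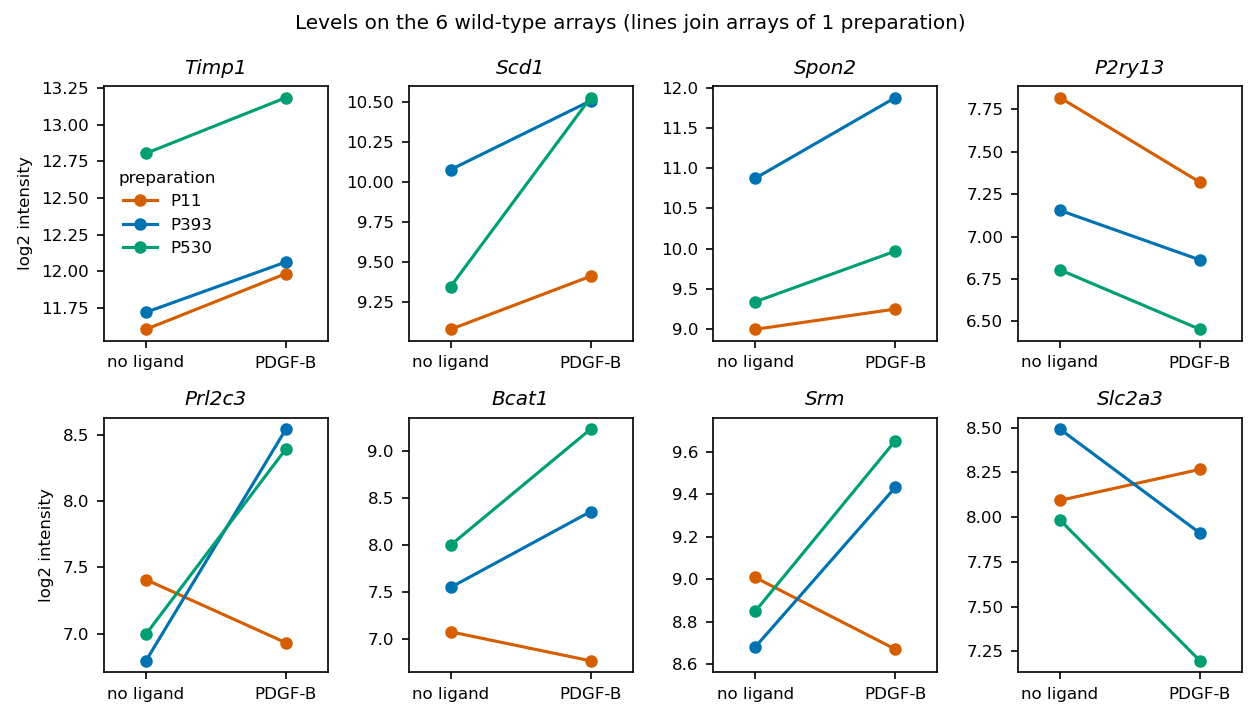
Log2 intensity (vertical axis) of 8 genes without ligand and with PDGF-B on the 6 wild-type arrays, with a line for each preparation. Timp1, Scd1, Spon2 and P2ry13 move the same way in all 3 preparations, whereas Prl2c3, Bcat1 and Srm go up and Slc2a3 goes down in P393 and P530 but the other way in P11.

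Each preparation was left out in turn, and only without P11 did genes pass the threshold. In that fit 80 genes rose with PDGF-B (0.601% of 13305) and 74 fell (0.556%) at an adjusted p under 0.05, against 0 without P393 and 0 without P530. P393 and P530 then were the wild-type pairs left, the knockout pairs entered for the estimate of the spread, and all adjusted p-values below are from it unless said otherwise. Its size depends on the setting: median scaling gave 18 higher and 161 lower genes, the mean of a gene's probes 14 and 6, no background correction 18 and 6, and leaving the preparation out of the model 0. The pair left out is the one that ran against the other wild-type pairs, so leaving it out narrows the spread by choice. The adjusted p-values of this fit therefore do not hold their stated error rate. Below, rose and fell refer to the change over P393 and P530 alone. Of the 154 genes, 12 passed under each of 12 other settings that kept the block: Bcat1, Prl2c2, Prl2c3, Prl2c4, Srm, Stard4, Col15a1, Socs2, Gfpt2 and Mvd among the higher, and Slc2a3 and Morf4l1b among the lower.

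The proliferin genes Prl2c2, Prl2c3 and Prl2c4, which code for secreted glycoproteins of the prolactin family first known from growing mouse fibroblasts, had the largest increases. Prl2c3 went from 6.80 to 8.54 in P393 and from 6.997 to 8.39 in P530, but from 7.41 to 6.93 in P11. Both ligand arrays of P393 and P530 lay above all arrays without ligand, and that of P11 lay among them. The change without P11 was 1.58 ± 0.14 (SE), or 2.996-fold (adjusted p = 9.35e-04), and with P11 0.89 ± 0.32 (adjusted p = 0.999). Prl2c2 had 1.69 and 1.19 in P393 and P530 and -0.39 in P11, and Prl2c4 had 1.36, 1.25 and -0.57. The 3 genes are near-identical copies, so their probes may read each other's RNA and are not 3 independent results. The promoter of Prl2c3 from RefSeq (GRCm38.p6, chr13:12800030-12800329, minus strand, 300 bases around the start) is shown because this gene changed most; capitals mark the single match to TGANTCA, the letters bound by AP-1 factors, on either strand.

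Prl2c3: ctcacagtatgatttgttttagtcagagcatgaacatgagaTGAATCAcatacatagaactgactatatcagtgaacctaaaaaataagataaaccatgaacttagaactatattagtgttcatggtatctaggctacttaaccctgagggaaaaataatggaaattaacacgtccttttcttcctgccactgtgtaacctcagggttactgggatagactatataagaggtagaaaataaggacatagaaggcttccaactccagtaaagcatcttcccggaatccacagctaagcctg

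These letters occurred in 7.81% of 32851 promoters of the same length and in 6.17% of 81 promoters of the genes that rose without P11. A match is a description of the sequence and not a binding site.

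Bcat1, the cytosolic aminotransferase of branched-chain amino acids, went from 7.55 to 8.35 in P393, from 7.998 to 9.23 in P530 and from 7.08 to 6.77 in P11. Without P11 it rose 2.03-fold (log2 change 1.02 ± 0.10 SE, adjusted p = 9.35e-04). Over 13 other settings of that fit the log2 change of Bcat1 ran from 0.55 to 1.03. Srm, the spermidine synthase of the polyamine pathway, went from 8.68 to 9.43, from 8.85 to 9.65 and from 9.01 to 8.67 in the same order, and rose by 0.78 ± 0.07 (adjusted p = 9.35e-04). Both ligand arrays of P393 and P530 exceeded every array without ligand for Srm, and the ligand array of P11 was the lowest of all 6. Gfpt2, the entry enzyme of hexosamine synthesis, rose by 0.65 ± 0.08 (adjusted p = 0.00383) and had -0.29 in P11.

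Single members of the lists of JAK-STAT feedback (1 of 12), secreted growth factors (1 of 18) and ERK targets (1 of 17) were among the 80, which are 0.601% of all genes. Socs2, a feedback inhibitor of JAK-STAT signalling, went from 8.30 to 8.87 in P393, from 7.98 to 8.68 in P530 and from 8.30 to 7.71 in P11 (0.64 ± 0.08 SE without P11, adjusted p = 0.00378). Fgf7, a growth factor that mesenchymal cells secrete for epithelia, had 0.84 and 0.61 in P393 and P530 and -0.20 in P11 (0.73 ± 0.09 SE without P11, adjusted p = 0.00546). Sphk1, which makes sphingosine 1-phosphate, had 0.58, 0.80 and -0.02 (0.69 ± 0.09, adjusted p = 0.00572). Phlda1, an ERK target, had 0.94, 0.49 and -0.42 (0.71 ± 0.11, adjusted p = 0.0154). Tnfrsf12a, the receptor of the cytokine TWEAK, had 0.89, 0.44 and -0.53.

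Of the matrix lists, 2 of 17 basement membrane genes, 1 of 21 matricellular glycoproteins, 0 of 15 genes of collagen crosslinking and 0 of 12 fibrillar collagens were among the 80. Of all genes 0.601% were. Col15a1, a collagen of basement membrane zones, went from 6.74 to 7.32 in P393 and from 6.46 to 7.38 in P530 and was at 6.09 and 6.12 in P11 (0.75 ± 0.09 SE, adjusted p = 0.00378). Tnc (tenascin C), a matrix glycoprotein of wounds, went from 7.51 to 8.08, from 7.07 to 8.29 and from 7.94 to 7.88 (0.90 ± 0.15, adjusted p = 0.0218). Cd44, the hyaluronan receptor, rose by 0.62 ± 0.09 (adjusted p = 0.01). Mgp, the matrix Gla protein that restrains calcification, had 1.18, 0.63 and -0.91 in P393, P530 and P11 (0.91 ± 0.19, adjusted p = 0.0453). Snai2 (Slug) and Prrx1, transcription factors of mesenchymal cells, rose by 0.64 and 0.62, and Thy1, a surface protein of fibroblasts, by 0.54. Scd1, Spon2 and Foxs1, positive in P11 too, were past the threshold in this fit as well (adjusted p = 0.0257, 0.0211 and 0.0492). Of 13 other settings of this fit, Scd1 passed in 8, Spon2 in 7, Snai2 in 5, Mgp in 3 and Foxs1 in 2. Gfpt2, Sphk1, Tnfrsf12a, Mgp, Snai2 and Prrx1 were chosen after their values were seen.

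Among the genes that fell without P11, Slc2a3, the glucose transporter GLUT3, went from 8.49 to 7.91 in P393 and from 7.98 to 7.20 in P530, against 8.09 to 8.27 in P11. Its change was -0.69 ± 0.08 (SE, adjusted p = 0.00378). Aldh1a1, a retinaldehyde dehydrogenase, had -0.54, -1.10 and 0.06 in P393, P530 and P11, and Krt14, an epithelial keratin, -0.51, -1.10 and 0.27. Slc40a1 (ferroportin), the iron exporter, went from 11.35 to 10.97 in P393 and from 9.11 to 7.78 in P530 and was at 11.21 and 11.32 in P11. Bmp4, a ligand of the BMP family, fell by 0.52 ± 0.10 on the log2 scale (adjusted p = 0.033) and was negative in all 3 pairs (-0.09 in P11). Upk1b and Gpm6a, both mesothelial markers, fell by 0.64 and 0.60, largely through P530 (-1.03 and -0.88, against -0.25 and -0.30 in P393). The summed mesothelial level of P530 was 10449 without and 5924 with ligand, and its part in the lower values of Krt14 and Aldh1a1 was not tested. Adamts1, a secreted metalloproteinase, Rtn1, Lims2, Morf4l1b and Cdc42ep3, an effector of Cdc42, fell by 0.47 to 0.59. Over other settings of that fit the change ran from -0.71 to -0.29 for Adamts1 and from -0.70 to -0.33 for Rtn1. Of 13 other settings, Krt14 and Adamts1 passed in 9, Aldh1a1 in 8, Bmp4 in 7, Slc40a1 and Gpm6a in 4 and Upk1b in 2. Slc40a1 was chosen after its values were seen.

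The signs of the 154 genes were compared with those in P11 and in the knockout pairs. In P11, 124 of them had the opposite sign (80.5%), as did 59.9% of all genes when set against the mean of P393 and P530. In the mean of the knockout pairs 122 had the same sign (79.2%), against 53.3% of all genes, and 86 had it in all 3 knockout pairs (55.8%, against 17.6%). The knockout pairs gave part of the spread by which the genes were chosen, and 49 to 56 of the 154 passed when 1 of these pairs was left out. The count with the same sign in all 3 knockout pairs is therefore partly fixed by the choice. The median change in the direction of the call was 0.43 in P393, 0.48 in P530 and -0.17 in P11, and 0.12, 0.13 and 0.08 in the knockout pairs P338, P522 and P524. Bcat1, for instance, had 0.71, 0.69 and 0.64 in the knockout pairs, and Prl2c3 0.15, 0.73 and 0.81.

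**Figure D4:**
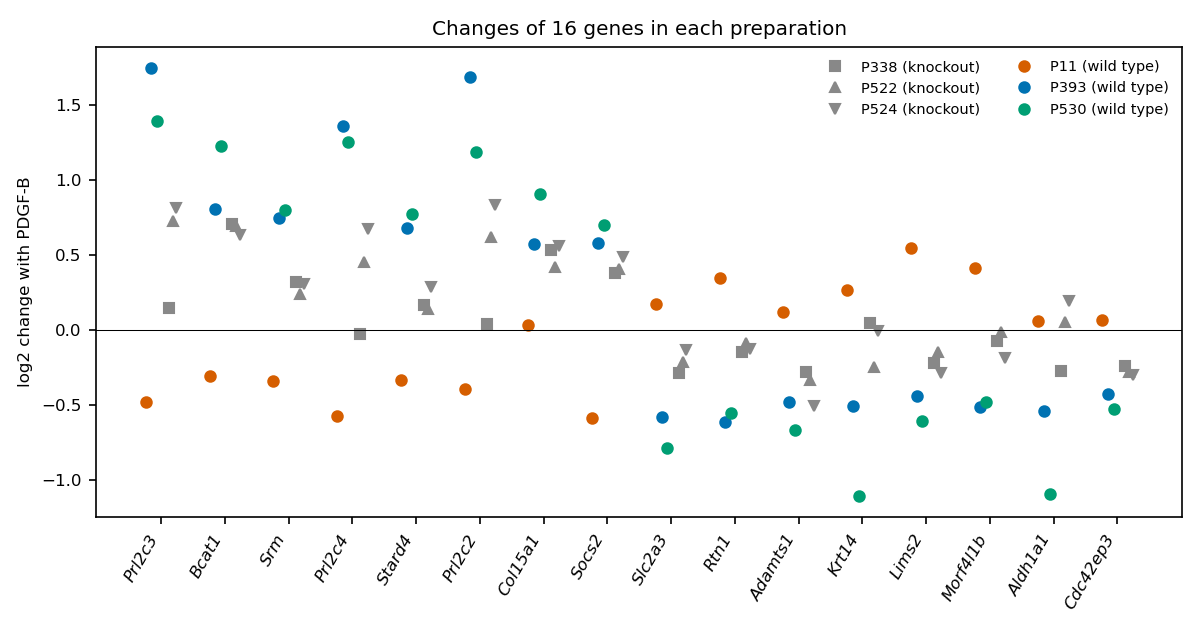
Log2 change with PDGF-B (vertical axis) of the 8 genes in each direction with the smallest p in the fit without P11, 1 point for each wild-type (coloured) and knockout (grey) preparation. P393 and P530, which chose the genes, lie on the same side of 0 for every gene, P11 lies on the other side of 0 for all genes but Col15a1, and the knockout pairs mostly lie between.

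The genes of the PDGF system itself showed no change past the threshold. Pdgfrb, the beta receptor, went from 6.68 to 6.82 in P11, from 6.78 to 6.92 in P393 and from 7.60 to 7.80 in P530 (mean 0.16 ± 0.07 SE, unadjusted p = 0.0548). Pdgfra, the alpha receptor, had -0.03, -0.27 and 0.33, with a sign of the mean that depended on the normalization. The ligand genes Pdgfa, Pdgfb and Pdgfc had pair values of -0.38 to 0.12. Nrp1, a coreceptor, had 0.26 and 0.27 in P393 and P530 and -0.25 in P11.

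Early targets of the receptor's signalling had varied signs. Of 20 immediate-early transcription factors 11 had a positive mean over the pairs, against 6534 of all 13305 genes, and 0 were called with or without P11. Egr1 went from 10.15 to 9.83 in P11, from 9.68 to 9.86 in P393 and from 10.02 to 10.32 in P530. Fos had 0.01, 0.23 and -0.52 and Myc -0.09, 0.13 and 0.01, while Egr2 had 0.47, 0.05 and 0.51. Of 17 ERK feedback regulators and targets 6 were positive in the mean, and 1, Phlda1, rose without P11, as did 0.601% of all genes. Dusp6 and Dusp4, phosphatases of ERK and its kin chosen after their values were seen, had -0.23, 0.04 and -0.21, and -0.60, 0.63 and 0.21. Ccnd1 (cyclin D1), the driver of entry into the cell cycle, had -0.39, 0.68 and 0.26 (0.47 ± 0.11 SE without P11, adjusted p = 0.0581).

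Of 17 FoxO targets, which Akt signalling holds down, 14 had a negative mean. The medians were 0.12 in P11, -0.14 in P393 and -0.12 in P530, against 0.01, -0.01 and -0.00 for all genes. The median of the mean change was -0.06 with all pairs and 0.0075 without P393. Sesn1 (sestrin 1), a stress-induced regulator of mTORC1, went from 10.73 to 10.10 in P393, from 10.21 to 9.90 in P530 and from 10.18 to 10.37 in P11, and was the 1 member that fell without P11 (-0.46 ± 0.09 SE, adjusted p = 0.0349). Of all genes 0.556% fell, and Sesn1 passed in 5 of 13 other settings of that fit. Cited2 had 0.27, -0.14 and -0.80 in P11, P393 and P530, and Trp53inp1 -0.03, -0.26 and -0.33, neither past the threshold.

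In the mean of all 3 pairs, cholesterol genes had the highest median of the lists, 0.18, which was 0.11 without P393. Without P11 the amino acid stress list was higher (0.286 against 0.275), and without P393 the fibrillar collagens (0.25). All 18 measured members had a positive mean over the 3 pairs, and the median change was 0.43 in P393 and 0.23 in P530 but -0.07 in P11. In P393 18 of 18 were positive, in P530 17 and in P11 7. Without P11, 4 of the 18 rose, against 0.601% of all genes, all acting in the pathway or in moving its product: Hsd17b7 (0.69 ± 0.12 SE, adjusted p = 0.0273), Lss (0.69 ± 0.10, adjusted p = 0.0145), Mvd (0.56 ± 0.08, adjusted p = 0.0125) and Stard4 (0.73 ± 0.08, adjusted p = 0.00195). Lss, the lanosterol synthase, went from 7.77 to 8.68 in P393, from 7.90 to 8.37 in P530 and from 7.50 to 7.34 in P11. Stard4, a carrier of sterols, went from 7.91 to 8.59, from 8.19 to 8.97 and from 8.36 to 8.03 in the same order. Mvd and Stard4 passed in 12 of 13 other settings of that fit, and Lss and Hsd17b7 in 8. Srebf2, the transcription factor that controls the pathway, was chosen after its values were seen and had 0.12, 0.00 and 0.48 in P11, P393 and P530.

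The promoters of 3 members that rose are shown from RefSeq (GRCm38.p6), as the list moved together in P393 and P530. They lie at chr10:76531355-76531654 (plus strand) for Lss, chr1:169969156-169969455 (minus) for Hsd17b7 and chr8:122443373-122443672 (minus) for Mvd. Capitals mark CCAAT, the letters read by the factor NF-Y, on either strand.

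Lss: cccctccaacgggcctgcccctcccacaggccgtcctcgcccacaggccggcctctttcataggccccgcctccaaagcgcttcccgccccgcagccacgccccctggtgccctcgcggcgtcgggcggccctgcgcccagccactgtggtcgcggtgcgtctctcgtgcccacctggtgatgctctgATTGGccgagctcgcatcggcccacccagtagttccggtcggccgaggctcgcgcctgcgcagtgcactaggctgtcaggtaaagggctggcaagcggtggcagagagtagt

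Hsd17b7: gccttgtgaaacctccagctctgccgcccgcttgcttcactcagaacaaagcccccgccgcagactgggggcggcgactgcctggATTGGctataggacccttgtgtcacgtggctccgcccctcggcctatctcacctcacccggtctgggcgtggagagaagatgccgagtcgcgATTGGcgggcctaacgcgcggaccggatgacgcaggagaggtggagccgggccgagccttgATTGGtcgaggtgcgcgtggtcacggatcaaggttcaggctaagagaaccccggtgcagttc

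Mvd: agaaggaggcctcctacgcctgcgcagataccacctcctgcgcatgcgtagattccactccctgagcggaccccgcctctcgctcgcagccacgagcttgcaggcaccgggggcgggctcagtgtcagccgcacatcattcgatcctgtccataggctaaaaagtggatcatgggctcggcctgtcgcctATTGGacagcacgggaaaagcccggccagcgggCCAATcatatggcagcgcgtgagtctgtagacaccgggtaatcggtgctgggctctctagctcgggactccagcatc

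Lss held 1 match, Hsd17b7 3 and Mvd 2. Of the 18 list members 15 had promoters in the RefSeq table, 18 in all, and 15 of these promoters held CCAAT (83.3%), against 37.4% of all promoters. TCACNCCAC, a sterol response sequence, was in 0 of the 18 and in 1.24% of all. Matches differ with base composition, which was not matched here.

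The amino acid and ribosome lists also had negative medians in P11 and positive ones in P393 and P530. Of 17 genes of the amino acid stress response 16 had a positive mean, with medians of -0.11, 0.28 and 0.24 in P11, P393 and P530, and 4 rose without P11 (0.601% of all genes): Bcat1, Psat1, an enzyme of serine synthesis (0.51 ± 0.09 SE), Aldh18a1, which makes proline precursors (0.38 ± 0.08), and Sesn2 (0.45 ± 0.09). Of 23 genes of ribosome biogenesis 16 were positive, with medians of -0.09, 0.17 and 0.17; the median of their mean change, 0.09, was -0.00050 without P393. Nhp2, a protein of H/ACA ribonucleoproteins, went from 8.89 to 9.64 in P393, from 8.98 to 9.34 in P530 and from 9.32 to 9.12 in P11. It rose without P11, as did Rrp1b and Mrto4 (adjusted p = 0.0253, 0.0132 and 0.0492). Nop58, a core protein of box C/D ribonucleoproteins chosen after its values were seen, had -0.61, 0.81 and 0.11. Of 13 genes of fatty acid synthesis 8 were positive, and Scd1 and Acly, which makes cytosolic acetyl-CoA, rose without P11 (Acly 0.45 ± 0.08, adjusted p = 0.0303). Of 6 polyamine genes Srm rose without P11, and Odc1, the first enzyme, had -0.22, 0.20 and -0.37. Of 19 aminoacyl-tRNA synthetases 14 were positive with 0 called, and of 22 mitochondrial ribosomal proteins 16 with 0 called. The calls in all these lists stand beside 0.601% of all genes that rose without P11. Over 13 other settings of that fit Bcat1 and Srm passed in 12, Rrp1b and Scd1 in 8, Psat1 in 7 and Nhp2 in 6. Acly passed in 4, Aldh18a1 and Sesn2 in 3 and Mrto4 in 2.

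Among 30 G1/S and replication genes 22 had a positive mean, with medians of -0.07, 0.07 and 0.16 in P11, P393 and P530. The median of the mean change was 0.06 with all pairs and -0.02 without P530. Pcna, the replication clamp, was positive in each pair (0.15, 0.14 and 0.22), and Mcm2, a subunit of the replicative helicase, had 0.02, 0.14 and 0.34. Ung, a uracil glycosylase, had -0.00, 0.34 and 0.32. Of 21 mitosis genes 10 were positive. Birc5 (survivin) had -0.15, 0.10 and 0.44, and Cenpa, the histone of centromeres, 0.11, -0.06 and 0.45. The histone H2A genes H2ac12, H2ac15, H2ac22 and H2ac24, chosen after their values were seen, rose without P11 by 0.48 to 0.64. In 13 other settings of that fit they passed in 4, 5, 6 and 2, in that order. They are near-identical in sequence, so their probes are uncertain. In the knockout pairs P522 and P524 all 4 had values of -0.60 to -0.14, and in P338 they had 0.17 (H2ac22), -0.00 (H2ac15), -0.05 (H2ac12) and -0.12 (H2ac24).

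Matrix genes had another order of preparations. Of 12 fibrillar and microfibrillar collagens 8 had a positive mean, with medians of 0.12 in P11, 0.01 in P393 and 0.19 in P530, and 0 were called with or without P11. Col1a1, the main chain of type I collagen, went from 9.97 to 10.99 in P530 but from 9.12 to 9.17 in P11 and from 10.12 to 10.18 in P393. Col3a1 had 0.39, 0.13 and 0.22, and Col5a1 0.45, -0.03 and 0.40. Col4a2, a chain of basement membrane collagen, was positive in each pair (0.36, 0.13 and 0.38), and Nid1 (nidogen), which links the basement membrane, rose without P11 (0.44 ± 0.09 SE, adjusted p = 0.0497) with 0.03 in P11. Thbs2, an antiangiogenic matrix protein, had 0.59, -0.19 and 1.22. Among 16 metalloproteinases and TIMPs 8 were positive, and Timp3 had 0.02, -0.17 and -0.35, unlike Timp1. Of 14 integrins 10 were negative. Itga3 fell without P11 (-0.47 ± 0.09, adjusted p = 0.0349), and Itga5, the fibronectin receptor chain, had -0.03, 0.41 and 0.51. Itga3 passed in 4 of 13 other settings of that fit, and Nid1 in 2.

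Acta2, the smooth muscle actin of myofibroblasts, was at 14.05 and 14.09 in P11, 13.97 and 13.91 in P393 and 14.05 and 14.05 in P530. It lay at the top of the array's range, where quantile normalization gives a rank a fixed value (14.0491 on 3 arrays), so a change in its level could not be read from it. With the mean of its probes the change was -0.09. Of 18 serum response factor and actin genes 8 had a positive mean. Des had 0.01, 0.13 and 0.23, and Tpm2, a tropomyosin, 0.17, 0.09 and 0.16. Of 14 TGF-beta ligands, receptors and targets 9 were positive with 0 called.

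Chemokine genes showed wide and opposite values. Of 21 chemokines and cytokines 14 had a positive mean, with 0 called with or without P11. Ccl7, which attracts monocytes, went from 9.97 to 10.97 in P393, from 10.62 to 11.004 in P530 and from 10.69 to 9.96 in P11. Ccl2, with the same role and chosen after its values were seen, had 0.89, 0.35 and -0.69, and Il6 was lower with ligand in P530 alone (-1.02, against 0.16 and 0.16). Il1b was negative in each pair (-0.35, -0.04 and -0.43 in P11, P393 and P530). Of 19 interferon response genes 13 were negative, and Ifit3 fell without P11 (-0.56 ± 0.11 SE, adjusted p = 0.0349). Ifit3 passed in 5 of 13 other settings of that fit. Of 15 NF-kappaB feedback and adhesion targets 8 were positive.

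For the other lists, the counts of positive means stand beside 6534 of all 13305 genes. Calls without P11 stand beside 0.601% higher and 0.556% lower of all genes. Of 18 secreted growth factors 10 were positive, with Fgf7 higher and Bmp4 lower without P11 as given above, and of 12 genes of JAK-STAT feedback 5, with Socs2. Of 18 ER chaperones 8 were positive, and Creld2 rose without P11 (adjusted p = 0.0492), but passed in only 2 of 13 other settings. Positive means were found for 11 of 18 genes of hypoxia and glycolysis, 11 of 20 subunits of oxidative phosphorylation, 8 of 15 NRF2 targets and 5 of 16 autophagy and lysosome genes, with 0 called in each. Of 19 cyclin, CDK inhibitor and p53 genes 7 were positive, Sesn1 being the 1 that fell. Matrix lists had 10 of 17 basement membrane genes, 15 of 21 matricellular glycoproteins, 9 of 15 genes of collagen crosslinking and 6 of 8 hyaluronan genes with positive means. Among the cell markers 14 of 20 myofibroblast genes were positive, and Thy1 rose without P11. In 12 of 41 lists the medians had the same sign in all 3 pairs.

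**Figure D5:**
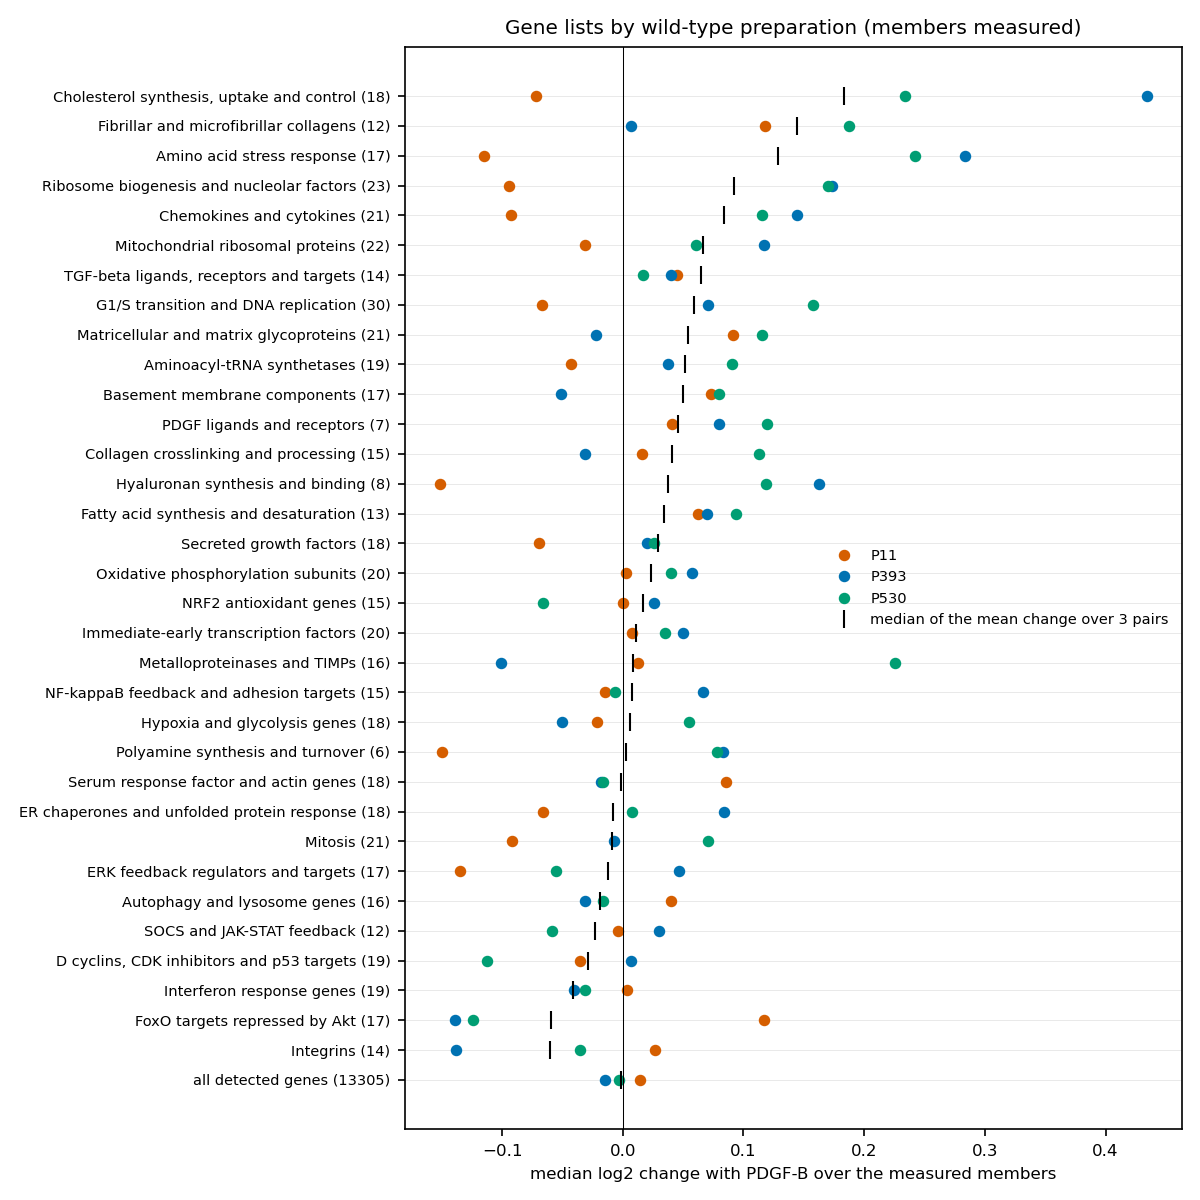
Median log2 change with PDGF-B (horizontal axis) over the measured members of each gene list other than the cell markers (vertical axis) in P11, P393 and P530, with a black tick at the median of the mean change over the 3 pairs. Cholesterol genes lie at 0.43 in P393, 0.23 in P530 and -0.07 in P11, and FoxO targets at 0.12 in P11, -0.14 in P393 and -0.12 in P530.

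Whether the response of wild-type cells differed from that of knockout cells was tested in the same fit as an interaction. The difference passed the threshold for 0 of 13305 genes (0%), with 600 at an unadjusted p under 0.05, fewer than the 665 that chance gives. Map1lc3a had the smallest p among genes with an established name, with changes of 0.23, 0.17 and 0.26 in P11, P393 and P530 and of -0.11, -0.46 and -0.37 in the knockout pairs P338, P522 and P524. The difference was 0.54 ± 0.11 (SE, unadjusted p = 4.51e-04, adjusted p = 0.998). Pcbd2, Tyrobp, an adaptor of myeloid receptors, and Bdh2 were likewise positive in 3 of 3 wild-type and negative in 3 of 3 knockout pairs, with differences of 0.41 to 0.48. Igfbp4 went the other way, at -0.30, -0.32 and -0.17 against 0.15, 0.16 and 0.14 (difference -0.41 ± 0.09, adjusted p = 0.998). Cul2 and Cpe, with negative values in each wild-type pair, had positive values in each knockout pair, and P2ry13 had -0.06, 0.05 and 0.08 there. Of the 8 genes of this paragraph 0 were among the 154 genes called without P11.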

How the data were processed

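The authors deposited bead intensities of 45281 probes for 12 arrays, not normalized and without detection p-values, and a table of normalized intensities; how these were normalized was not given in the sources used, and they served as an alternative. From the first, limma 3.58.1 (R 4.3.3) corrected background (normexp, offset 50), applied quantile normalization and gave log2 intensities, so fold changes of dim genes are understated. Probes with 1 symbol in the platform annotation numbered 34885, with several 18 and with none 10378. A probe counted as above background at p under 0.05, from the mirrored lower tail of each array, and was kept if so on at least 3 arrays. The brightest kept probe stood for a gene.

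The fit over all 12 arrays had the preparation as a block and a PDGF-B term for each genotype, with lmFit, eBayes and Benjamini-Hochberg adjustment (threshold 0.05). Pairing comes from the codes in the titles. After removing group means, arrays of a code correlated at r = 0.58 to 0.93, and with another code at -0.06 at most. Removing the means pushes values between codes toward negative ones, so the contrast with other codes is partly fixed. Named were a panel of 12 genes, those with the largest smallest change among genes of 1 sign in all pairs, those with the smallest p in each contrast, and up to 4 genes a list by mean change. List members called without P11 and the ligand genes were named beside these. Members and lists were chosen with earlier results of these data known. Alternatives covered the block, arrays in the fit, background correction, normalization, detection filter, probe choice, variance model, array weights and leaving out each preparation; those applied to the fit without P11 were chosen after seeing the data. The number of arrays limits precision. Scripts were tested on simulated data.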

Additional observations from a re-analysis of the deposited data

How the results depend on the processing

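With all 3 pairs, 0 genes were called under each alternative that kept them; leaving out 1 preparation gave 0 to 154, the highest without P11. The 628 genes at an unadjusted p under 0.05 became 78 with no replicate block for the preparation, 326 with only the wild-type arrays, 263 with median scaling, 330 with quantile normalization over the wild-type arrays, 969 with array weights, and 280 to 1995 with 1 preparation left out (lowest without P530, highest without P11). The 2785 genes with 1 sign in all pairs became 4221 with no detection filter and 2785 to 7710 with 1 preparation left out. The 12 lists with 1 sign became 3 with median scaling and 12 to 28 with 1 preparation left out. Without a wild-type preparation fewer pairs have to share a sign. Chance alone then raises both counts, so they are not comparable with those over 3 pairs. The 154 genes called without P11 became 0 without the replicate block, 57 with only the wild-type arrays, 24 without background correction, 30 with the authors' values, 20 with the mean of probes, 89 with array weights and 50 to 57 with a knockout preparation left out; with median scaling they became 179, 80 of them shared, and the median of all genes moved from -0.01 to -0.07. The cause of these shifts was not tested. Signs turned for Pdgfra (0.01; -0.0262 with median scaling, -0.0014 with the authors' values). With 1 preparation left out, changes ran from -0.151 to 0.146 for Pdgfra, -0.0315 to 0.02001 for Acta2, -0.0628 to 0.47 for Ccnd1, -0.0707 to 0.24 for Egr1, -0.0386 to 0.0701 for Myc and -0.255 to 0.122 for Fos. The block changed no other call. The wild-type arrays alone give no genotype difference. Dim genes near background have little room to fall, which limits folds for them.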
